A study of Homo sapiens with 18 samples.

Results

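Partially fragmented hyaluronan from naked mole-rat skin fibroblasts (fNSF-HA) was compared with the vehicle PBS in IMR90 human lung fibroblasts that had been stressed with tert-butyl hydroperoxide (tBHP). The comparison used the 3 libraries of fNSF-HA pre-incubated, tBHP-treated cells and the 3 libraries of PBS pre-incubated, tBHP-treated cells, 6 of the 18 libraries of the series. Of 56269 genes, the 13686 whose normalized count averaged at least 10 across the 18 libraries were tested. A normalized count is the number of reads on a gene divided by the size factor of its library, and differences are given on the log2(normalized count + 1) scale. Both groups were cultured in EMEM with 15% fetal bovine serum. The fNSF-HA cells received 20 µg/ml of the polymer for 6 h and the PBS cells received PBS for 6 h, after which the medium was removed and both groups were exposed to 200 µM tBHP for 1 h and collected 5 h later. The other 12 libraries were PBS and fNSF-HA cells collected after the 6 h pre-incubation, without tBHP, and cells given cNSF-HA, the control preparation that had not been fragmented, without and with tBHP, again with 3 replicates in each group. IMR90 is a single diploid line. The methods of the study call its replicates biological, and the labels do not say whether these were separate cultures, so the p-values measure the spread between these libraries. Fragmentation was partial and was made by brief digestion with hyaluronidase, so fNSF-HA was not a preparation of a single chain length. The enzyme was then inactivated by heat, and cNSF-HA was heated with enzyme already inactivated, a treatment not described for PBS. Effects of the polymer, of residual enzyme and of the preparation therefore cannot be told apart in fNSF-HA against PBS.

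Hyaluronan is an unbranched polysaccharide of the extracellular matrix. Fibroblasts make it at the cell surface with hyaluronan synthases, cleave it with hyaluronidases and bind it through CD44, whose signals are thought to depend on the length of the chain, and through HMMR. tBHP is an organic peroxide that oxidizes cellular thiols and lipids and brings on the NRF2 antioxidant response and the p53 response.

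The 6 libraries held 20261103 to 26287660 reads on genes. Values spread more between replicates after tBHP than before it. The median SD of a gene was 0.15 (log2) among the PBS libraries with tBHP and 0.22 among the fNSF-HA libraries with tBHP, against 0.07 and 0.06 among the PBS and fNSF-HA libraries without tBHP. The departures varied with transcript GC content. Among the 1253 genes of highest GC content, 1 of 10 equal groups, fNSF-HA replicate 2 lay 0.79 below the mean of the 9 tBHP libraries (median over these genes) and fNSF-HA replicate 1 lay 0.20 below it, whereas fNSF-HA replicate 3 lay 0.17 above it. PBS replicate 1 lay 0.31 above the mean in the same genes, and PBS replicates 2 and 3 lay within 0.02 of it. In the 1253 genes of lowest GC content the order of these libraries turned over. Without tBHP no PBS or fNSF-HA library departed by more than 0.08 in either of these groups of genes. All 11 fibroblast markers, one of which is LUM, passed the filter, with a summed normalized count of 590792 to 722545 in the PBS libraries and of 458972 to 663460 in the fNSF-HA libraries. None of the 6 immune markers passed it (PTPRC, CD3E and MS4A1 were at 0). Of 8 epithelial markers 2 passed it and of 6 endothelial markers 2, with KRT5, SFTPC, SCGB1A1 and CDH5 at 0. The highest were CLDN4, with up to 1301 in a library, and TIE1, with up to 649. The epithelial markers summed to 1282 to 1484 in the PBS libraries and to 773 to 1388 in the fNSF-HA libraries. For the endothelial markers these sums were 521 to 676 and 395 to 610.

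**Figure D1:**
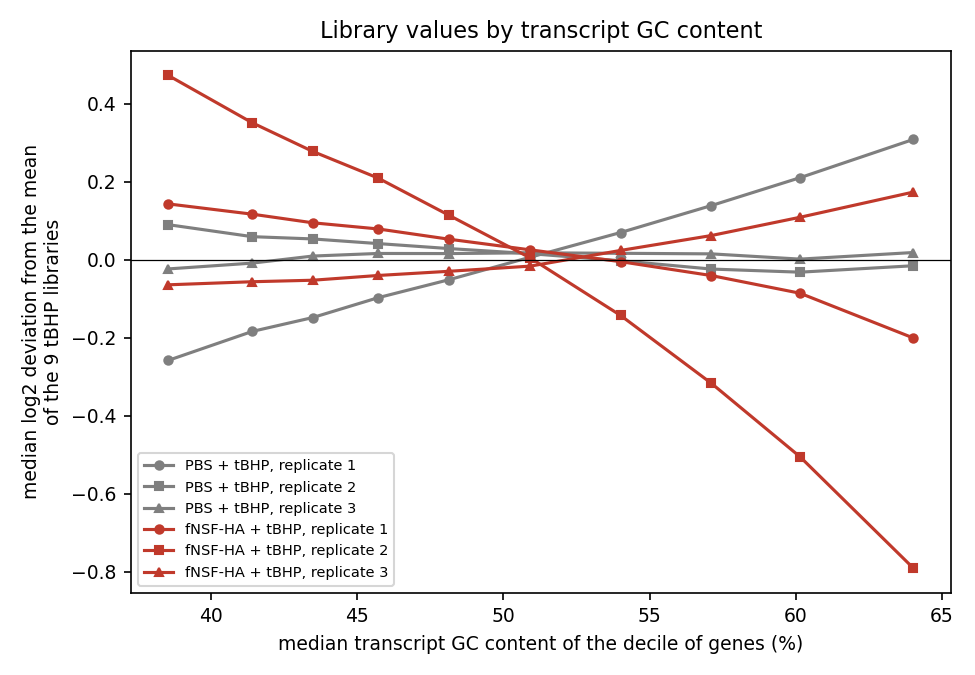
Median log2 deviation of each tBHP-treated PBS (gray) and fNSF-HA (red) library from the mean of the 9 tBHP libraries (y axis), by transcript GC content in percent (x axis), each point being 1 of 10 equal groups of 1252 or 1253 genes. The fNSF-HA replicate 2 line runs from 0.47 at the lowest GC content to -0.79 at the highest, and the PBS replicate 1 line from -0.26 to 0.31.

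After tBHP, 16 genes were higher and 3 were lower in fNSF-HA cells than in PBS cells at a limma adjusted p of 0.05, which is 0.139% of the genes tested (0.117% higher and 0.0219% lower). The higher genes encoded, among others, the matrix proteoglycan lumican (LUM), the histone acetyltransferase HAT1, the mitochondrial RNA-processing enzyme PNPT1 and the NADPH-producing malic enzyme ME1. The lower genes were the transcription factors FOXF1 and HOXA3 and the secreted pentraxin NPTX1. Of the 19 genes 1 carried only a clone name and is counted without being named. The differences were small, from 0.29 to 1.40 (log2) for the higher genes and from -0.36 to -0.56 for the lower genes, beside a median of 0.01 over all genes tested. In all 19 genes the 3 fNSF-HA libraries did not overlap the 3 PBS libraries, as in 12.0% of the genes tested (6.86% higher and 5.11% lower). That share was 14.0% without tBHP.

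These calls, and the SE given with each difference, rested on a spread shared by all 18 libraries, although the tBHP libraries spread more. In simulated data with a larger spread after tBHP this shared fit made false calls well beyond its threshold, as did edgeR and DESeq2. A limma fit of the 9 tBHP libraries stayed near that threshold. The simulated spread was independent between genes and alike in all tBHP libraries, unlike the departures along GC content seen here. It therefore cannot show how these fits behave under such departures. In limma fits of the 9 libraries with tBHP alone or of the 6 libraries compared alone, 0 genes passed, with 1104 and 689 genes at an unadjusted p under 0.05, and 0 passed when limma weighted the tBHP libraries by their own spread (1583 genes at an unadjusted p under 0.05). In the fit of the 9 tBHP libraries the limma adjusted p of every one of the 19 genes was 0.557. From all 18 libraries edgeR called 36 genes and DESeq2 called 442. The number also hung on single libraries. It was 4 without PBS replicate 1 (none of the 19), 171 without PBS replicate 2 and 0 without PBS replicate 3, and 0, 0 and 4024 without fNSF-HA replicates 1, 2 and 3. None of the 19 genes turned direction in any of these fits.

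**Figure D2:**
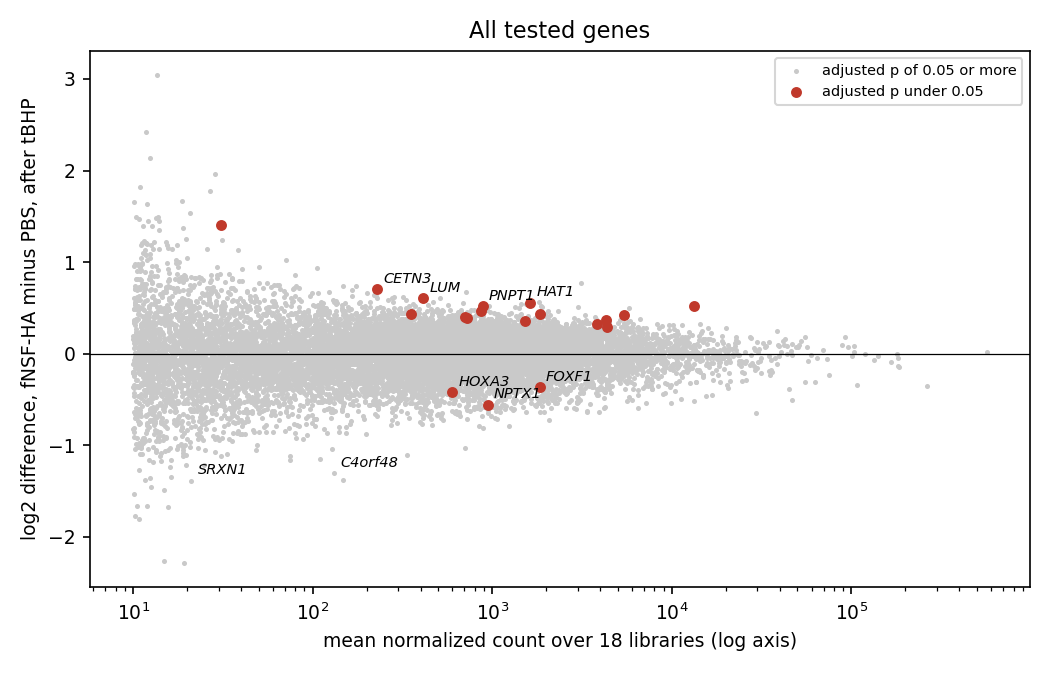
Log2 difference of fNSF-HA from PBS cells after tBHP (y axis) against the mean normalized count over 18 libraries (x axis, log scale) for the 13686 genes tested, with the 19 genes past a limma adjusted p of 0.05 in red. The red points lie between -0.56 and 1.40, inside the range of -2.29 to 3.04 spanned by all genes.

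**Figure D3:**
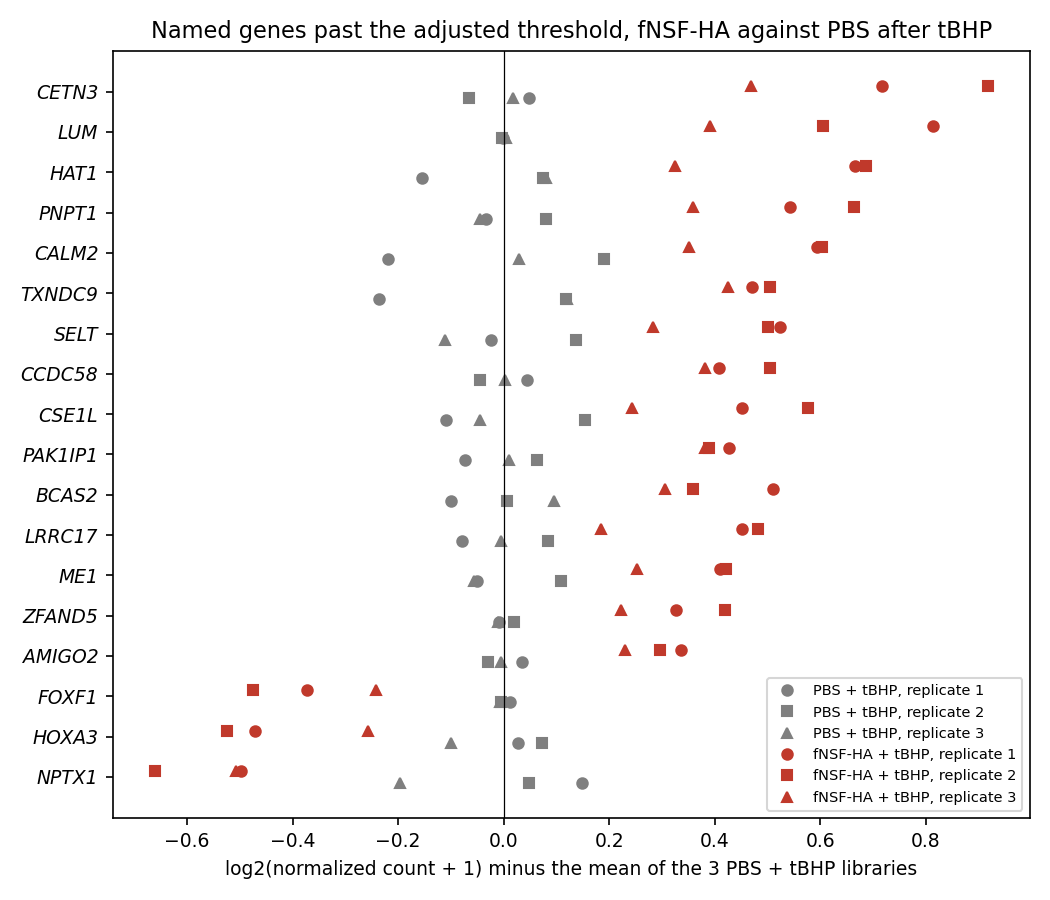
Log2(normalized count + 1) of the 18 named genes in each tBHP-treated library, relative to the mean of the 3 PBS libraries of that gene (gray, PBS; red, fNSF-HA; the symbol gives the replicate). In every gene the red symbols lie on one side of the gray ones, and in 17 of the 18 genes, all but NPTX1, fNSF-HA replicate 3 is the red symbol nearest to the PBS mean.

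Among matrix and surface proteins, lumican, a small leucine-rich proteoglycan of collagen fibrils, had normalized counts of 225, 224 and 225 in the PBS libraries and of 395, 343 and 295 in the fNSF-HA libraries. The PBS libraries were nearly equal, and the lowest fNSF-HA library was still above them. The log2 difference was 0.60 ± 0.09 (SE), 1.52-fold, with a limma adjusted p of 0.0261. LRRC17, a secreted leucine-rich repeat protein, had 2642, 2955 and 2781 in PBS cells against 3813, 3894 and 3168 in fNSF-HA cells, with a log2 difference of 0.37 ± 0.07 (limma adjusted p = 0.0486). AMIGO2, an adhesion molecule of the plasma membrane, had 4777, 4564 and 4645 against 5881, 5726 and 5466, a difference of 0.29 ± 0.05 (limma adjusted p = 0.0393). In all 3 genes fNSF-HA replicate 3 was the lowest of its group.

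Among proteins of the nucleus and of RNA metabolism, HAT1 acetylates newly made histone H4. It had normalized counts of 883, 1034 and 1039 in PBS cells and of 1558, 1582 and 1230.0 in fNSF-HA cells, a difference of 0.56 ± 0.09 (limma adjusted p = 0.0261). PNPT1, the polyribonucleotide nucleotidyltransferase of mitochondria, had 390.4, 422 and 387 against 582, 634 and 513, a difference of 0.52 ± 0.08 (limma adjusted p = 0.0261). BCAS2, a component of the spliceosome, differed by 0.39 ± 0.07, with 589 to 674 in PBS cells and 780.2 to 899.7 in fNSF-HA cells. PAK1IP1, which takes part in ribosome biogenesis, differed by 0.40 ± 0.07, with 434 to 477 against 595 to 614. CSE1L, the exportin that returns importin alpha to the cytoplasm, differed by 0.42 ± 0.08, with 3203 to 3845 against 4089 to 5152. The groups did not overlap in any of these 5 genes.

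Among redox, calcium and other proteins, ME1 produces NADPH in the cytosol. It had 1488, 1661 and 1481 in PBS cells and 2047, 2065 and 1837 in fNSF-HA cells, a difference of 0.36 ± 0.07 (limma adjusted p = 0.0433). TXNDC9, a thioredoxin-domain protein, had 587, 750.1 and 752 against 958, 982 and 928, a difference of 0.47 ± 0.09 (limma adjusted p = 0.0433). PBS replicate 1 was the low library there and the fNSF-HA libraries were close together. SELT, a selenoprotein of the endoplasmic reticulum, had 1072, 1199.8 and 1009.9 against 1569.6, 1545 and 1327, a difference of 0.44 ± 0.08. CALM2, one of the genes for the calcium sensor calmodulin, had 6762, 8973 and 8027 against 11873, 11950.2 and 10039.6, a difference of 0.52 ± 0.09. CETN3, a centrin of the centrosome, had the largest difference of the 18 named called genes, 0.70 ± 0.12, with 149, 137 and 146 against 237, 272 and 199. The mitochondrial protein CCDC58 differed by 0.43 ± 0.08, with 270.0 to 287 against 363 to 396. ZFAND5, a zinc finger protein that activates the proteasome, differed by 0.32 ± 0.06, with 3526 to 3605 against 4149 to 4755. In these last 5 genes the limma adjusted p was 0.0393.

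The 3 lower genes encode 2 transcription factors and a secreted protein. FOXF1, a forkhead factor of the lung mesenchyme, had 2511, 2481 and 2479 in PBS cells and 1922, 1791 and 2105 in fNSF-HA cells, a difference of -0.36 ± 0.07 (limma adjusted p = 0.0393). NPTX1, neuronal pentraxin, had 1364, 1273 and 1073 against 872, 778 and 866, a difference of -0.56 ± 0.10 (limma adjusted p = 0.0393). HOXA3, a homeobox factor, had 524, 541 and 480.3 against 371, 357 and 431, a difference of -0.42 ± 0.08 (limma adjusted p = 0.0498). The HOXA locus holds antisense transcripts, and the kit does not mark strand, so reads of overlapping transcripts could not be told apart.

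Side by side with the levels before stress, 14 of the 16 higher genes were at a lower level with tBHP than without it in PBS cells, 13 of them at a limma adjusted p of 0.05, against 6802 of the 13686 genes tested (3678 at that adjusted p). The exceptions were ME1 and AMIGO2. After tBHP, LUM was at 39.8% of its unstressed mean in PBS cells and at 63.0% in fNSF-HA cells. For PNPT1 the values were 31.4% and 43.8%, for CALM2 45.9% and 63.8%, and for CETN3 50.1% and 89.2%. The lower level with tBHP passed at a limma adjusted p of 0.05 in both groups for LUM, PNPT1 and CALM2, and for CETN3 in PBS cells but not in fNSF-HA cells (adjusted p = 0.26). ME1 was at 115% of its unstressed mean in PBS cells and at 148% in fNSF-HA cells, and AMIGO2 at 131% and 158%. FOXF1 was at 174% in PBS cells and at 142% in fNSF-HA cells, NPTX1 at 148% and 109%, and HOXA3 at 73.8% and 51.8%. The same PBS libraries with tBHP enter these percentages and the comparison above, so they are not a separate test.

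**Figure D4:**
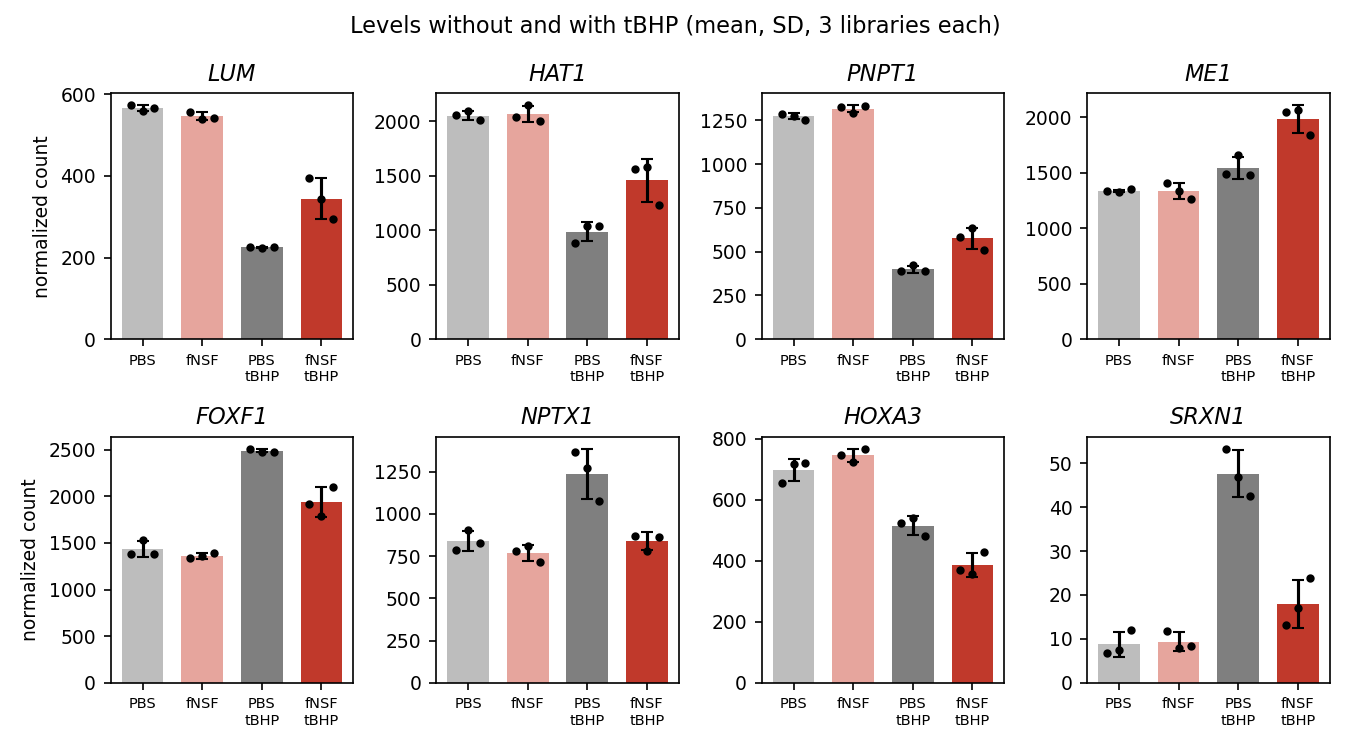
Normalized counts (y axis) of 8 genes in PBS and fNSF-HA cells without and with tBHP. Bars are means, error bars SD and points the 3 libraries of a group. The gray and red tBHP bars differ in each panel while the pale bars of the same 2 pre-incubations without tBHP lie close together.

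Without tBHP, 0 genes (0.00%) differed between fNSF-HA and PBS cells at a limma adjusted p of 0.05, and 109 (0.796%) had an unadjusted p under 0.05. From the same libraries edgeR called 0 genes and DESeq2 called 3. The differences of the 19 genes before stress ran from -0.15 to 0.10, and none of them had an unadjusted limma p under 0.05. That fit shared its spread with the more variable tBHP libraries, so its p-values were cautious for unstressed cells. In 6 of the 19 genes the unstressed groups did not overlap, as in 14.0% of all genes tested. PNPT1, CSE1L, ZFAND5 and HOXA3 were higher in fNSF-HA cells there, and LUM and CETN3 were lower. When limma was fitted to the 9 libraries without tBHP alone, 1055 genes had an unadjusted p under 0.05. At the adjusted threshold 19 other genes passed in that fit, all lower in fNSF-HA cells, 10 of them with clone names. None of them was among the genes called after tBHP. Whether the fNSF-HA difference was another one after tBHP than before it was tested as an interaction, for which 0 genes (0.00%) passed with limma, 0 with edgeR and 6 with DESeq2 (958 without fNSF-HA replicate 3 after tBHP, 20 without PBS replicate 2 after tBHP and 0 without any 1 of the other 4 libraries with tBHP). Here 942 genes had an unadjusted p under 0.05, 6.88% of those tested. All 19 genes were among them, which says little, because they were chosen on the difference after tBHP that is a part of this contrast. The smallest limma adjusted p was 0.602, so a change of the fNSF-HA difference with tBHP was not shown for any gene in this fit.

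The cNSF-HA cells with tBHP were compared with the same 3 PBS libraries, so their values are only set beside those of fNSF-HA. LUM differed from PBS by 0.10 in cNSF-HA cells and by 0.60 in fNSF-HA cells. For PNPT1 the differences were 0.38 and 0.52, for HAT1 0.34 and 0.56, for PAK1IP1 0.35 and 0.40, and for ME1 0.11 and 0.36. For FOXF1 they were -0.13 and -0.36, for HOXA3 -0.08 and -0.42, and for NPTX1 -0.07 and -0.56. In the comparison of cNSF-HA with PBS the smallest limma adjusted p among the 19 genes was 0.361. All 19 had the same direction there as in fNSF-HA cells, against 6942 of the 13686 genes tested, and the shared PBS libraries favor this. Of the 19, 10 had an unadjusted limma p under 0.05 there, all of them higher genes, beside 1183 of all genes. Between fNSF-HA and cNSF-HA cells after tBHP 0 genes passed with limma. Here 17 of the 19 and 4412 of all genes had an unadjusted limma p under 0.05.

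The transcript GC content of the called genes is given as a description, with no test. The 14 higher genes with a GC value had transcripts of 34.6% to 45.2% GC and the 3 lower genes of 51.2% to 60.0%, around a median of 49.5% over all genes tested. Of the 12528 genes with a GC value, 32.8% lay at or below the highest of these higher genes and 43.9% at or above the lowest of these lower genes. When the trend of each library with GC content and length was removed, 0 of 12528 genes passed with limma, 1596 had an unadjusted p under 0.05, and the smallest adjusted p was 0.0505, that of HAT1. The 17 called genes that could be fitted this way kept their direction. LUM then differed by 0.29, HAT1 by 0.35, PNPT1 by 0.28 and ME1 by 0.16, and among the lower genes FOXF1 by -0.32, HOXA3 by -0.31 and NPTX1 by -0.32. In 14 of the 17, NPTX1 among them, the difference became smaller by more than 1.5 times.

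Promoter sequences from RefSeq (GRCh38.p14, 250 bases before to 50 after the transcription start, 5′ to 3′ on the strand of the gene) were looked up for the named genes, and 13 of the 18 had an entry in the table used here. Here 4 are shown because the text turns on them: PNPT1 and HAT1 for their small adjusted p, ME1 as a called NRF2 target and SRXN1 as an NRF2 target that lay lower. The windows are chr2:55693795-55694094 (minus strand) for PNPT1, chr2:171922211-171922510 (plus strand) for HAT1, chr6:83431002-83431301 (minus strand) for ME1 and chr20:653151-653450 (minus strand) for SRXN1. Capitals mark matches on either strand to TGACNNNGC (antioxidant response element core), ACGTG (hypoxia response element core), CCGGAA (ETS core) and CCTGCG (a motif described for the cleaved CD44 tail), and no matches overlapped.
PNPT1: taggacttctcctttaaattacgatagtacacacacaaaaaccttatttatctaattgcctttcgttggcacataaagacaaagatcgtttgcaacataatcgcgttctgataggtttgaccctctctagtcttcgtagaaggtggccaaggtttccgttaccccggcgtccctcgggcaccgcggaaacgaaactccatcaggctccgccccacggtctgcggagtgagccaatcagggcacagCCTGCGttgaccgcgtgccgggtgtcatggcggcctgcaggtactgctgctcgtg
HAT1: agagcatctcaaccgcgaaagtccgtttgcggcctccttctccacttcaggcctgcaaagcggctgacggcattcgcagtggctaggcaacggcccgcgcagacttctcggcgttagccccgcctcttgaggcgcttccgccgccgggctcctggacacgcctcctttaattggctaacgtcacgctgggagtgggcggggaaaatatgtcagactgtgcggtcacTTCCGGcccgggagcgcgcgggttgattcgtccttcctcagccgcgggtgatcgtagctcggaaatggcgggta
ME1: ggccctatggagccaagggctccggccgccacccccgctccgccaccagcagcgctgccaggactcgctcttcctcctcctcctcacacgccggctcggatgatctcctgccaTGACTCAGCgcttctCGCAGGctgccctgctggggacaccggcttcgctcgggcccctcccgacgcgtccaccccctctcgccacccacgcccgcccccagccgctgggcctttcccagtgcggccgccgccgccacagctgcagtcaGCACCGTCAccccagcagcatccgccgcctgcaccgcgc
SRXN1: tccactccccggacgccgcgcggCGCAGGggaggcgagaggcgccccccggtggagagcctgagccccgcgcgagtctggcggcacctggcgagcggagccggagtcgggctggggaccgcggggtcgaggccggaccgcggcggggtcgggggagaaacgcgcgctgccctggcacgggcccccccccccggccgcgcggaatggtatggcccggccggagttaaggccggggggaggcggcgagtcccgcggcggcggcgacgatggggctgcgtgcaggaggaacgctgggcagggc

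The ME1 window held 2 matches to TGACNNNGC, and the SRXN1, PNPT1 and HAT1 windows held none. TGACNNNGC matched in 14.5% of the 14229 promoter windows of genes tested (13.3% of all 35116 in the table), ACGTG in 25.4% (21.4%), CCGGAA in 26.8% (17.2%) and CCTGCG in 33.5% (23.5%). Of the 22 windows of the called genes 3, 6, 3 and 8 held them, in the same order. These are matches of letters and not sites of binding.

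SRXN1, sulfiredoxin, which reduces overoxidized peroxiredoxins, had the largest difference among the NRF2 targets. It had 53.3, 46.8 and 42.7 normalized counts in PBS cells with tBHP and 13.2, 17.0 and 23.9 in fNSF-HA cells, a difference of -1.39 ± 0.28 with a limma adjusted p of 0.0524 and an edgeR adjusted p of 0.0364, while DESeq2 gave it no adjusted p. The groups did not overlap. In cNSF-HA cells with tBHP it had 22.1, 27.4 and 29.5, also lower than every PBS library, a difference of -0.83 ± 0.28 from the same PBS libraries (limma unadjusted p = 0.00792, not past the adjusted threshold). Its mean without tBHP was 8.78 in PBS cells and 9.35 in fNSF-HA cells, so it was at 542% of that level in PBS cells and at 193% in fNSF-HA cells. The difference was -1.30 with the GC and length trend removed, and between -1.60 and -1.19 with any 1 of the 6 libraries left out. Of the 26 NRF2 targets, all tested, limma called ME1, edgeR called ME1 and SRXN1, and DESeq2 called ME1 and TXN. With an unadjusted limma p under 0.05, 6 were higher and 1 was lower. Over all genes tested 11.7% were higher and 11.0% lower at that p, and the counts given for every list of genes stand beside those shares. Their median difference was 0.01, equal on rounding to that of all genes. Thioredoxin (TXN) had 5439 to 5807 in PBS cells and 6739 to 7283 in fNSF-HA cells, a difference of 0.32 ± 0.08 (limma adjusted p = 0.0755, DESeq2 adjusted p = 0.0130) that was -0.024 with the GC trend removed.

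Outside the called genes, the largest differences among genes with a mean of at least 100, no overlap and an unadjusted p under 0.05 were led on the lower side by C4orf48, CBARP, SNHG19, ABHD8, ANO8 and G0S2. C4orf48 had 204, 159 and 177 in PBS cells and 67.5, 40.4 and 137 in fNSF-HA cells, a difference of -1.30 ± 0.31 (limma adjusted p = 0.0736). G0S2, an inhibitor of triglyceride lipolysis, had 399, 293 and 324 against 225, 122 and 276, a difference of -0.77 ± 0.26 (limma adjusted p = 0.138). In each of these 6 genes fNSF-HA replicate 2 was the lowest library. On the higher side, beside CETN3, stood MT-ATP8, ZNF680, PWAR6, HIGD1A and CHIC1. HIGD1A, a hypoxia-inducible protein of the inner mitochondrial membrane, had 338, 452 and 453 against 648, 801 and 539, a difference of 0.67 ± 0.13 (limma adjusted p = 0.0524). MT-ATP8 overlaps MT-ATP6, so its reads are uncertain, and it had 2355, 1484 and 1102 against 3161, 2404 and 2523. Of these 11 genes limma called none, edgeR called HIGD1A (adjusted p = 0.0422) and DESeq2 called 8, all but G0S2, PWAR6 and MT-ATP8. In 8 of the 11 the difference became smaller by more than 1.5 times with the GC and length trend removed and in 6 without fNSF-HA replicate 2. Their differences without fNSF-HA replicate 2 ran from -0.89 to 0.85.

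Genes for hyaluronan synthesis, breakdown and binding gave 0 calls among 16 tested of 22. By limma, 2 were higher and 1 was lower at an unadjusted p under 0.05, and the median was 0.09. CD44, the main receptor, had 33227, 34294 and 34158 in PBS cells and 34993, 39148 and 33776 in fNSF-HA cells, a difference of 0.08 ± 0.06. The groups overlapped. HMMR had 459.6, 636 and 599.6 against 566, 741 and 468, a difference of 0.06 ± 0.14 that was -0.12 without fNSF-HA replicate 2. HAS2, a hyaluronan synthase, had 6889.6, 9005 and 8532 against 9719, 12113 and 8541 (0.31 ± 0.11, limma adjusted p = 0.142). UGP2, which makes the UDP-glucose that hyaluronan synthesis draws on, differed by 0.29 ± 0.09, and the link protein HAPLN3 by -0.35 ± 0.16. With the GC and length trend removed HAS2 was at 0.048, UGP2 at 0.13 and HAPLN3 at -0.093, and without fNSF-HA replicate 2 they were at 0.17, 0.20 and -0.13. The median of the list was -0.01 without fNSF-HA replicate 2 and 0.01 with the trend removed. The same held widely among the 55 uncalled genes named from the lists and as receptors. Of the 54 that could be fitted with the trend removed, the difference of 48 became smaller by more than 1.5 times or turned, and without fNSF-HA replicate 2 this was so for 22 of the 55.

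Hyaluronan fragments of low molecular mass have been discussed as ligands of Toll-like receptors, which signal through NF-kB. The study reports that most of fNSF-HA kept a high molecular mass, so this preparation does not stand for such fragments. Of 11 Toll-like receptor signaling genes tested 0 passed, with 1 higher and 2 lower at an unadjusted limma p under 0.05 and a median of -0.10, which was -0.03 without fNSF-HA replicate 2 and -0.02 with the trend removed. The MD-2 gene LY96 differed by 0.57 ± 0.24 at 33.9 to 80.8 normalized counts, the kinase IRAK1 by -0.28 ± 0.13 and its inhibitor TOLLIP by -0.31 ± 0.15. Of 18 NF-kB targets and inflammatory mediators 0 passed, with 0 higher and 3 lower at an unadjusted limma p under 0.05 and a median of 0.04, which turned to -0.02 and -0.05 without fNSF-HA replicates 2 and 3 and to -0.03 with the trend removed. These 3 were the cytokine gene LIF (-0.24 ± 0.08) and the NF-kB subunits NFKB2 (-0.25 ± 0.10) and RELB (-0.44 ± 0.20). With the GC trend removed IRAK1 and NFKB2 were at 0.038 and 0.035, RELB at -0.040 and LIF at -0.031. Of 14 interferon-stimulated genes 0 passed, with 1 higher and 2 lower at an unadjusted limma p under 0.05. IFI44 had 59.9 to 78.8 in PBS cells and 92.3 or more in fNSF-HA cells, whereas ISG15 had 146 to 201 against 61.7 to 163.

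Of 40 p53 targets, all tested, 0 passed, and with an unadjusted limma p under 0.05 there were 6 higher (15.0%) and 2 lower (5.00%). The median was 0.02. The median tBHP response of these targets was 1.18 in PBS cells and 1.04 in fNSF-HA cells (log2, with tBHP minus without). Cyclin G1 (CCNG1), a feedback regulator of p53, had 1265, 1711 and 1558 in PBS cells and 2050.2, 2714 and 1752 in fNSF-HA cells (0.51 ± 0.12, limma adjusted p = 0.075). TRIAP1, an inhibitor of apoptosis, differed by 0.35 ± 0.10, and PERP, an apoptosis and desmosome protein, by 0.23 ± 0.07. In all 3 the groups did not overlap.

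Chaperone genes lay mostly above 0, where 7040 of the 13686 genes tested lay. Of 19 endoplasmic reticulum chaperones 0 passed, 14 had a difference above 0, 7 were higher and 0 lower at an unadjusted limma p under 0.05, and the median was 0.14. The protein disulfide isomerases PDIA6 and PDIA3 differed by 0.18 ± 0.05 and 0.23 ± 0.06. PDIA6 had 11891, 11778 and 11730.3 in PBS cells and 13962, 13326 and 12919 in fNSF-HA cells. HSP90B1, the chaperone GRP94, differed by 0.25 ± 0.07. With the GC trend removed the median of the list was 0.08. Of 14 cytosolic heat shock genes 0 passed, 5 were higher and 1 lower at an unadjusted limma p under 0.05, and the median was 0.11, or 0.04 with the trend removed. HSPA4 had 4387, 4977 and 4565 against 5712, 5626 and 5174 (0.25 ± 0.06, limma adjusted p = 0.0687), and HSPH1 differed by 0.30 ± 0.07. Of 25 genes of the ATF4 and CHOP stress response 0 passed, with 2 higher (the tRNA exportin XPOT, 0.29 ± 0.09, and asparagine synthetase ASNS, 0.23 ± 0.08) and 2 lower at an unadjusted limma p under 0.05. The transcription factor CEBPB differed by -0.38 ± 0.12 and was at 0.071 with the GC trend removed.

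Immediate early genes and collagens lay mostly below 0, where 6646 of the 13686 genes tested lay. Of 25 immediate early genes 0 passed, 0 were higher and 7 lower at an unadjusted limma p under 0.05, 22 had a difference below 0, and the median was -0.19. JUND had 1447, 1253 and 1406 in PBS cells and 795, 792 and 1153 in fNSF-HA cells (-0.60 ± 0.16, limma adjusted p = 0.091), a difference that was -0.020 with the GC and length trend removed. JUNB had 1897, 1525 and 1618 against 1010.2, 515 and 1731, and JUN had 7970.0, 6634 and 7146 against 5383, 4160.3 and 7496. In JUNB and JUN fNSF-HA replicate 3 lay within or above the PBS libraries. The transcripts of this list had a median GC content of 57.7%, and its median difference was -0.01 with the GC and length trend removed and -0.10 without fNSF-HA replicate 2. Of 17 collagen genes 0 passed, 0 were higher and 8 lower at an unadjusted limma p under 0.05, and the median was -0.18, or -0.05 with the trend removed and -0.09 without fNSF-HA replicate 2. COL5A1, COL18A1 and COL4A2 differed by -0.29 ± 0.10, -0.51 ± 0.18 and -0.29 ± 0.11, and by -0.061, -0.017 and -0.15 with the trend removed. In all 3 of them fNSF-HA replicate 3 overlapped the PBS libraries.

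Of 26 other matrix genes limma called LUM, and edgeR and DESeq2 called LUM and POSTN, with 4 higher and 3 lower at an unadjusted limma p under 0.05. Periostin (POSTN), a matricellular protein, had 948, 1214 and 988 in PBS cells and 1441, 1696 and 1319 in fNSF-HA cells (0.50 ± 0.10, limma adjusted p = 0.0524, edgeR adjusted p = 0.0422). The lysyl oxidase LOXL1 differed by -0.47 ± 0.16 with overlapping groups. Of 16 metalloproteinases and inhibitors 0 passed, with 1 higher and 3 lower at an unadjusted limma p under 0.05. The interstitial collagenase MMP1 had 3072, 3569 and 3373 against 4164, 4217 and 3977 (0.31 ± 0.07, limma adjusted p = 0.0687), the procollagen N-proteinase ADAMTS2 differed by -0.26 ± 0.09 (0.081 with the GC and length trend removed), and the aggrecanase ADAMTS5 by -0.38 ± 0.14. The groups did not overlap for MMP1 and overlapped for ADAMTS2 and ADAMTS5.

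Of 28 mitosis genes 0 passed, 9 were higher and 2 lower at an unadjusted limma p under 0.05, and the median was 0.07, or -0.03 with the GC trend removed and 0.01 without fNSF-HA replicate 2. CDK1, the kinase that drives entry into mitosis, had 1049.7, 1289 and 1173 in PBS cells and 1506, 1742 and 1356 in fNSF-HA cells (0.39 ± 0.09, limma adjusted p = 0.0662). TTK, a spindle checkpoint kinase, differed by 0.44 ± 0.12, and the kinetochore protein NDC80 by 0.34 ± 0.09. Of 30 DNA replication genes 0 passed, with 3 higher and 6 lower at an unadjusted limma p under 0.05. Among them POLD1, the catalytic subunit of DNA polymerase delta, differed by -0.58 ± 0.20, the helicase subunit MCM5 by -0.37 ± 0.13 and the ligase LIG1 by -0.31 ± 0.10. In these 3 genes the groups overlapped. Of 14 histone genes tested 0 passed, and HIST1H2AG had 8.71 to 12.5 against 17.0 to 20.5.

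Of 78 mitochondrial ribosomal protein genes 0 passed, with 14 higher and 6 lower at an unadjusted limma p under 0.05 and a median of 0.00. MRPL1 had 212, 291 and 266 in PBS cells and 358, 373 and 322 in fNSF-HA cells (0.46 ± 0.11, limma adjusted p = 0.0687). MRPL39 and MRPS36 differed by 0.35 ± 0.08 and 0.39 ± 0.10, again without overlap. Of 76 nuclear genes of the respiratory chain 0 passed, with 8 higher and 2 lower at an unadjusted limma p under 0.05. Their smallest p belonged to the complex III subunit UQCRC2 (0.25 ± 0.06), the ATP synthase subunit ATP5C1 (0.27 ± 0.07) and the complex III subunit UQCRB (0.28 ± 0.07). Of 36 proteasome genes 0 passed, with 8 higher and 1 lower at an unadjusted limma p under 0.05, and PSMA4 and PSMA3 differed by 0.32 ± 0.10 and 0.25 ± 0.08. In all of these named genes, which were picked for their small p, every fNSF-HA library was above every PBS library. Over the whole lists the groups did not overlap in 12 higher and 4 lower of 78 mitochondrial ribosomal protein genes. This was so for 8 higher and 1 lower of 76 respiratory chain genes and for 5 higher and 0 lower of 36 proteasome genes. Over all genes tested the shares were 6.86% higher and 5.11% lower.

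The ZNF zinc finger genes, many of which encode repressors with a KRAB domain, were the largest list. Of 457 tested 0 passed, 83 were higher and 41 lower at an unadjusted limma p under 0.05, and the median was 0.11. ZNF28 had 229, 196 and 225 in PBS cells and 304, 354 and 264 in fNSF-HA cells (0.50 ± 0.11, limma adjusted p = 0.0687). ZNF222 and ZNF10 differed by 0.58 ± 0.13 and 0.50 ± 0.12 with the same adjusted p. The groups did not overlap in any of the 3. The median of the list was 0.04 without fNSF-HA replicate 2, 0.18 without fNSF-HA replicate 3 and 0.05 with the GC and length trend removed. In the remaining lists (ETS factors, contractile and YAP-TEAD targets, cytosolic ribosomal proteins, mitochondrially encoded mRNAs, lysosome, sterol synthesis, glycolysis and hypoxia, noncoding RNAs and splicing factors) 0 of 250 genes passed, 19 were higher and 16 lower at an unadjusted limma p under 0.05, and the medians lay between -0.08 and 0.08. In the lists where limma called 0 genes edgeR called 0 as well. DESeq2 called 17 higher and 3 lower ZNF genes, 5 higher mitochondrial ribosomal protein genes, 4 higher genes each of the respiratory chain and of the endoplasmic reticulum chaperones, 3 higher genes each of the p53 targets and of mitosis, 2 higher heat shock genes, 1 higher gene each of the ATF4 response and of the metalloproteinases, and 1 lower immediate early gene. Over all genes it called 2.42% higher and 0.811% lower. In the 9 remaining lists it called 3 higher and 1 lower. In the lists of hyaluronan genes, Toll-like receptor signaling, NF-kB targets, interferon-stimulated genes, collagens, DNA replication, histones and the proteasome it called 0.

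**Figure D5:**
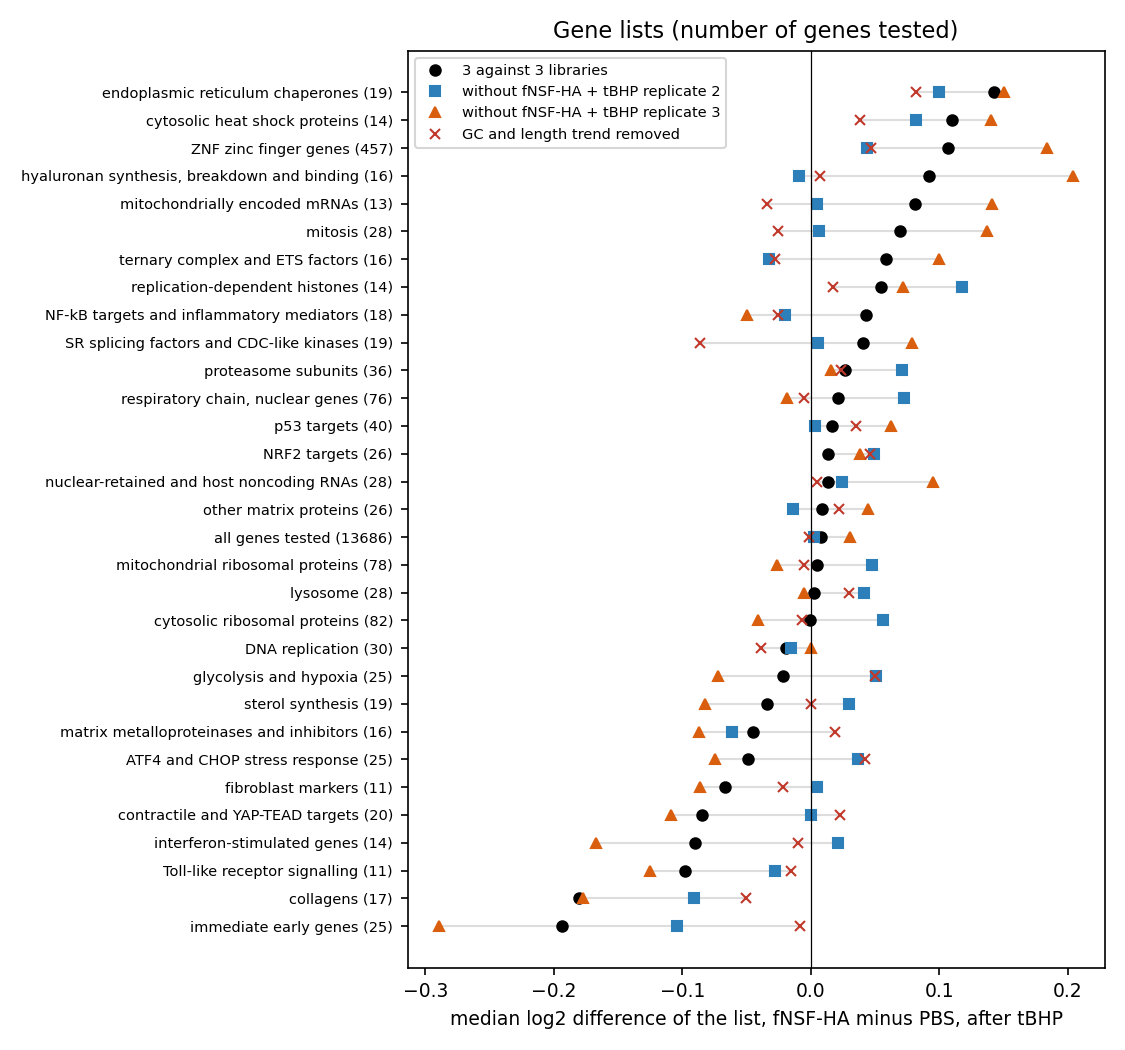
Median log2 difference of fNSF-HA from PBS cells after tBHP (x axis) for each gene list with at least 11 genes tested (y axis, number tested in parentheses). Circles use all 6 libraries, squares and triangles leave out fNSF-HA replicate 2 or 3, and crosses have the GC and length trend removed. For immediate early genes the circle is at -0.19 and the cross at -0.01, and for endoplasmic reticulum chaperones they are at 0.14 and 0.08.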

How the data were processed

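RNA-seq of IMR90 cells was analysed from 18 libraries in 6 groups of 3. Per the labels, polyA RNA libraries were made with an unstranded kit and sequenced as single-end reads of 100 nt, and the submitters' processing notes name GRCh38.p7, Trimmomatic 0.32, STAR 2.5.2b, featureCounts of Subread 1.5.0-p3 and DESeq2. The deposited signal is, for each gene, the read count scaled by the library size factor that the authors obtained with DESeq2. In every library 100% of the values were whole multiples of 1 value within 0.01 reads, so whole reads were recovered. The authors' own comparison fills 3 further columns (a p-value, a q-value and a rank), which were not used. Two-sided tests used limma 3.58.1 (R 4.3.3) on log2(value + 1), with a coefficient for each group, a trended variance prior and Benjamini-Hochberg adjustment over 13686 genes (threshold 0.05), and on the recovered reads with edgeR 4.0.16 (quasi-likelihood test, TMM) and DESeq2 1.42.0. The code was tested on simulated data, where large changes were mostly recovered but fits of all 18 libraries made too many false calls once the tBHP libraries were given a larger spread. GC content and length are medians over the GENCODE release 29 transcripts of a gene name, found for 12528 genes, and their trends were removed with natural splines of 5 degrees of freedom. Named genes were all called genes, the 6 largest differences each way among genes with a mean of at least 100, an unadjusted p under 0.05 and no overlap, up to 3 genes of smallest p in a list, CD44 and HMMR, and SRXN1, TXN and ME1 came in as members of the NRF2 list. The comparison and the gene lists, written by hand, were chosen with earlier results of these data known. Replicates were left unpaired, since the deviations of same-numbered fNSF-HA and PBS libraries with tBHP correlated at 0.14, 0.33 and -0.12.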

Additional observations from a re-analysis of the deposited data

How the results depend on the processing

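The number of genes that differed between fNSF-HA and PBS cells after tBHP, 19 with limma, was 21 or 22 with a pseudocount of 0.1 or 5, 21 after rescaling each library to the same median log2 ratio, 30 at a minimum mean of 50, 3 without a filter, 36 with edgeR and 442 with DESeq2. It was 0 with the 9 tBHP libraries alone, with the 6 libraries alone, with array weights and with the GC and length trend removed. Leaving out 1 tBHP library gave 0 to 4024, and with DESeq2 it was 71, 742 and 237 without PBS replicates 1 to 3 and 74, 73 and 4180 without fNSF-HA replicates 1 to 3. Before stress the 0 became 5 without a filter, 3 with DESeq2, 11 with array weights and 19 with the 9 unstressed libraries alone, and 0 to 2 with 1 library left out. The interaction gave 6 genes with DESeq2 and 0 to 9 with limma and 1 library left out. With DESeq2 it gave 958 without fNSF-HA replicate 3 after tBHP, 20 without PBS replicate 2 and 0 without any of the other 4 tBHP libraries. With the replicate number as a block the 3 counts were 61, 0 and 0, and since the samples share only a number this pairing was not used.

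Alternatives chosen after seeing the data gave 0 with the trend removed in the 9 tBHP libraries, 2 with it removed under the replicate block, 17 in the genes with a GC value and no removal, 0 to 265 with it removed and 1 tBHP library left out, 0 to 4 with 1 unstressed library left out, and 4 without PBS replicate 1 and fNSF-HA replicate 2 together. Of the genes named in the text, TXN (-0.024), ADAMTS2 (0.081), CEBPB (0.071), HMMR (-0.21), IRAK1 (0.038) and NFKB2 (0.035) reversed with the trend removed, in each fit of that kind. HMMR ran from -0.12 to 0.21 with 1 tBHP library left out, was -0.086 without PBS replicate 1 and was -0.26 without that library and fNSF-HA replicate 2 together, where IRAK1 was 0.041 and TOLLIP 0.055. The cause was not tested. Replicates of the 6 libraries differed by a chi-square of 4.20 to 70.4 per degree of freedom, more than counting error alone gives.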
